A study of Mus musculus with 6 samples.

Results

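The genes described are the nuclear genes of mitochondrial complex I in mouse pancreatic islets, 46 of the 54119 genes with a transcript in the deposited tables. They were chosen by symbol alone: every protein-coding gene of GENCODE release vM21 named Nduf followed by a, ab, b, c, s or v and a number was taken into the subunit family (38 genes), and every Ndufaf gene into the assembly factors (8 genes). The symbol rule uses no measured value, though the genes were taken up with earlier results of these data known, and all 46 passed the filter on low counts that left 16430 genes for testing. A further 5 genes carry a matching symbol but are annotated as pseudogenes or as a long noncoding RNA and were left out.

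Complex I, NADH:ubiquinone oxidoreductase, is the largest enzyme of the mitochondrial respiratory chain. It takes electrons from NADH through a flavin and a chain of iron-sulfur clusters in its matrix arm, passes them to ubiquinone, and uses the energy to pump protons through its membrane arm. Its catalytic core is split between nuclear genes and mitochondrial DNA, accessory subunits surround the core, and assembly factors help to build the complex without staying in it. In beta cells, the insulin-producing cells of the islet, respiration of glucose-derived NADH raises ATP, which closes potassium channels and leads to insulin release.

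The islets came from male C57BL/6 mice at postnatal day 24, 3 of the control genotype and 3 labelled Dpy30 knockout, with 1 mouse per library and between 100 and 200 islets picked by hand from each. Dpy30 encodes a shared subunit of the complexes that methylate lysine 4 of histone H3, and the question was what its loss does to the islet transcriptome. No label names a Cre line, the part of Dpy30 that was removed, or any allele of the controls. Libraries were poly(A)-enriched and strand-specific, and held 24575889 to 25354384 estimated reads in control and 17131515 to 23976598 in knockout islets. Levels are CPM (reads of a gene divided by the scaled total of its library) when libraries are compared for a gene, and TPM (which divides by transcript length as well) when genes are compared with each other. An increase of a gene in whole islets can come from more RNA per cell or from more cells that use the gene, and these cannot be told apart in bulk RNA.

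Total Dpy30 mRNA was at 25.6, 30.2 and 31.8 CPM in control replicates 1, 2 and 3 and at 31.9, 53.2 and 30.7 CPM in knockout replicates 1, 2 and 3, so total Dpy30 mRNA does not check the labels. Dpy30 transcripts that lack the exon at chr17:74307720-74307862 (GRCm38) took 5.24%, 0.438% and 3.78% of Dpy30 reads in control and 82.2%, 81.0% and 80.5% in knockout libraries, an exon picked from the data as the one that differed most. Summed islet endocrine mRNAs, none of them at 0, were at 245020 to 326480 CPM in control and 114230 to 162970 CPM in knockout libraries, with 0 of 13 higher and 2 lower. Most of that sum is insulin mRNA. Ins2 was at 104110 to 159720 CPM in control and 41831 to 73726 CPM in knockout libraries. Ins1 was at 38841 to 78361 and 17215 to 30223 CPM. The sum is therefore not a measure of endocrine cell number. Summed endothelial markers were at 609 to 768 CPM in control and 828 to 1077 CPM in knockout libraries (4 of 8 higher), mesenchymal markers at 199.7 to 429 and 363 to 743 CPM (1 of 8 higher), and acinar markers at 821 to 3360 and 2340 to 12992 CPM (0 of 14 called). Immune and ductal sums overlapped between the groups. The part of these other cell types in the complex I values was not tested, beyond the fit with the acinar level given below. Knockout replicate 2 stood apart. Gm42418, a gene overlapping ribosomal RNA sequence, was at 158400 CPM in it, against 1014.7 to 2144.5 CPM in the other 5 libraries. Short transcripts also read high in knockout replicate 2.

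Of the 38 subunit genes, 11 were higher in knockout than in control islets and none was lower, with 6 of the 11 in the proximal membrane arm. The test was the quasi-likelihood test of edgeR at an adjusted p below 0.05, by which 4.1% of all tested genes were called higher and 5.84% lower. No subunit gene was lower at an unadjusted p below 0.05, by DESeq2, which called 7.85% of its genes lower, or by limma-voom, which called 5.86%. The median log2 fold change (knockout over control) of the subunit family was 0.53, and values ran from -0.08 for Ndufv3 to 1.07 for Ndufb6. A positive log2 fold change was seen in 45 of the 46 genes, against 50.5% of tested genes. All 3 knockout libraries read above all 3 control libraries for 38 of the 46 genes, against 17.6% of tested genes. An unadjusted p below 0.05 was reached by 37 of the 46, against 27.5%. These shares are over tested genes of all lengths, while most complex I transcripts are shorter than the median, as given below.

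**Figure D1:**
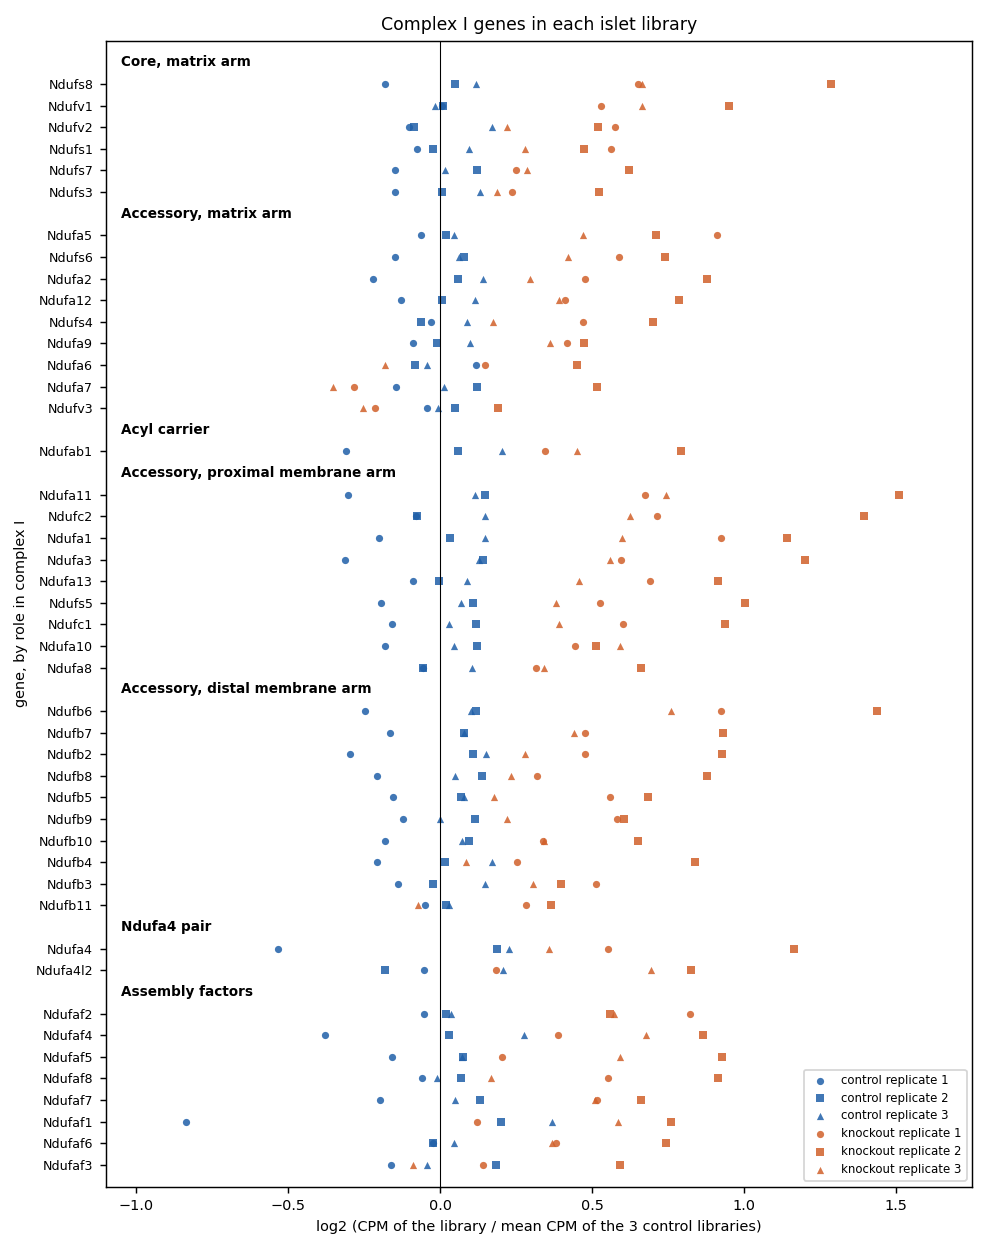
Level of the complex I genes named here in each of the 6 libraries, as log2 of the library's CPM over the mean CPM of the 3 control libraries, with genes grouped by role. Points are single libraries, controls blue and knockouts orange, and knockout points lie to the right of every control point in most genes.

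The pattern was present in each knockout library but was uneven in size. Summed over the subunit family, CPM was 1763, 2021 and 2050 in control and 2689, 3367 and 2420 in knockout libraries, so the groups did not overlap. Knockout replicate 2 was the highest of the 6 libraries for 40 of the 46 genes, and control replicate 1 was the lowest for 39. Knockout replicates 1 and 3 nevertheless both read above every control for 38 of the 46 genes, against 23.9% of tested genes.

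In control islets the subunit genes spanned a wide range of levels per length, with a median of 80.9 TPM, while the assembly factors had a median of 9.79 TPM. The highest was Ndufa1, a small membrane-spanning subunit, at 252, 253 and 321 TPM. Ndufa4, long counted as a complex I subunit and now assigned to cytochrome c oxidase, followed at 144, 203 and 244 TPM. Neither overlapped the core subunit Ndufs1, at 33.6, 31.5 and 39.5 TPM. At the low end of the subunit family stood Ndufb4 (14.9, 14.2 and 18.4 TPM) and Ndufa4l2, a Ndufa4 paralog induced by low oxygen (7.99, 6.98 and 9.63 TPM). Assembly factors ran from Ndufaf8, at 25.6, 24.2 and 27.1 TPM, down to Ndufaf6, at 5.07, 4.84 and 6.98 TPM. Many neighbours in the order overlap: the control libraries of Ndufa6 (191, 140 and 168 TPM) and Ndufv3 (140, 140 and 160 TPM) cannot be ranked.

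**Figure D2:**
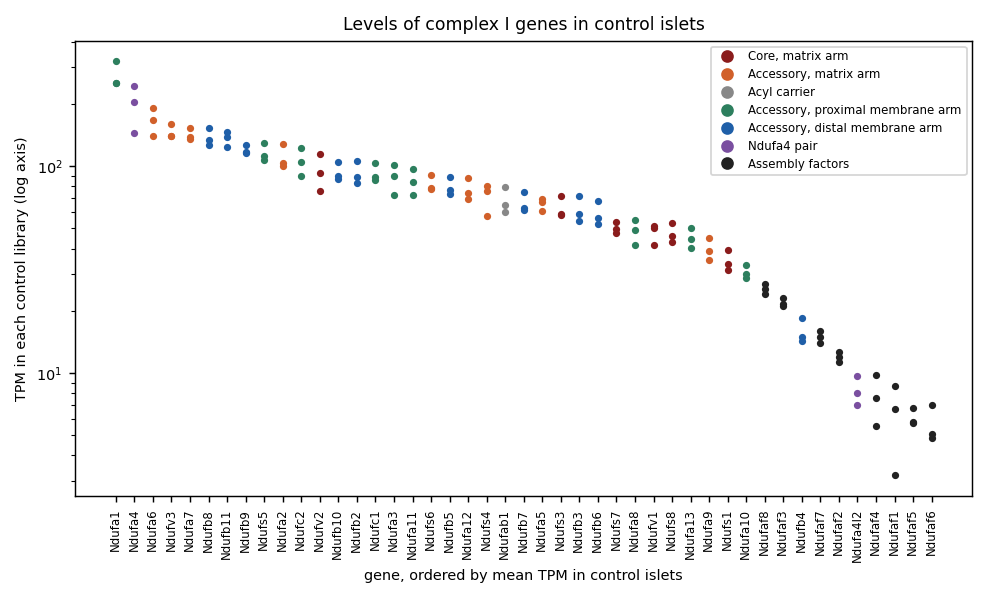
TPM of the complex I genes named here in the 3 control libraries on a log axis, with genes ordered by their mean and coloured by role. Each point is 1 library; the 8 assembly factors sit near the low end, with Ndufa1 at the high end.

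The nuclear core subunits of the matrix arm carry the flavin, the iron-sulfur clusters and part of the ubiquinone site. All 7 read higher in every knockout library than in any control library, against 17.6% of tested genes. Of the 7, 2 were called higher, Ndufs8 and Ndufv1, against 4.1% of tested genes. Ndufv1 (chr19:4007384-4012806, minus strand) encodes the subunit that binds the flavin and receives electrons from NADH. It was at 63.6, 63.7 and 62.5 CPM in control and 91.3, 122 and 100.3 CPM in knockout libraries. Its controls were nearly equal, and its lowest knockout library lay well above them (log2 fold change 0.72, SE 0.14, edgeR adjusted p = 0.0188). Ndufs8 (chr19:3908863-3912774, minus strand), an iron-sulfur subunit near the ubiquinone site, read 28.5, 33.5 and 35.1 CPM in control and 50.7, 78.8 and 51.2 CPM in knockout islets. Knockout replicate 2 was the highest for Ndufs8, and the other 2 knockout libraries were close to each other and above every control (log2 fold change 0.89, SE 0.20, edgeR adjusted p = 0.0285).

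No other core gene passed the threshold. Ndufs1, whose product is the largest subunit and holds several iron-sulfur clusters, was at 83.8, 86.8 and 94.3 CPM in control and 130.4, 123 and 107 CPM in knockout libraries. Its groups were separate and knockout replicate 1 was the highest (log2 fold change 0.44, SE 0.13, edgeR adjusted p = 0.0769). Ndufv2, the partner of Ndufv1, was at 72.5, 73.4 and 87.7 CPM in control and 116, 111 and 90.6 CPM in knockout libraries, where knockout replicate 3 came close to the highest control (log2 fold change 0.45, SE 0.15, edgeR adjusted p = 0.104). Ndufs7, which carries the last iron-sulfur cluster before ubiquinone, read 30.001, 36.2 and 33.7 CPM against 39.6, 51.2 and 40.6 CPM. Ndufs3 had the smallest change of the core, with 48.9, 54.5 and 59.5 CPM in control and 63.9, 77.9 and 61.8 CPM in knockout libraries (log2 fold change 0.32, SE 0.14, edgeR adjusted p = 0.194).

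Accessory subunits of the matrix arm were mixed. Of 9, 2 were called higher and 0 lower, against 4.1% and 5.84% of tested genes. In 6 the groups did not overlap, with knockout higher, against 17.6% of tested genes. Ndufa5 (chr6:24518666-24528013, minus strand), a subunit that sits on the ubiquinone-binding part of the arm, was at 20.2, 21.4 and 21.8 CPM in control and 39.8, 34.6 and 29.3 CPM in knockout libraries. For Ndufa5 knockout replicate 1, not 2, was the highest, and every knockout library lay above the narrow control range (log2 fold change 0.71, SE 0.15, edgeR adjusted p = 0.0249). With protein-coding transcripts only, the adjusted p of Ndufa5 was 0.0512. Ndufs6 (chr13:73319838-73328542, minus strand), a zinc-binding subunit, read 31.8, 37.2 and 36.8 CPM in control and 52.9, 58.9 and 47.1 CPM in knockout islets (log2 fold change 0.59, SE 0.14, edgeR adjusted p = 0.0354). Ndufs4, whose loss in mice gives a Leigh-like encephalopathy, had a log2 fold change of 0.46 that was not called (edgeR adjusted p = 0.103). With the replicate block, Ndufa12 was called as well (adjusted p = 0.0490).

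Ndufv3, Ndufa7 and Ndufa6 had the smallest log2 fold changes of the same arm. Ndufv3, an accessory subunit at the NADH-oxidising tip, was at 60.5, 64.5 and 62.0 CPM in control and 53.7, 71.1 and 52.2 CPM in knockout libraries. Its knockout replicates 1 and 3 were below every control and replicate 2 above every control (log2 fold change -0.08, SE 0.15, edgeR adjusted p = 0.773). The same arrangement held for Ndufa7, with 47.6, 57.3 and 53.1 CPM in control and 43.2, 75.2 and 41.2 CPM in knockout libraries (log2 fold change 0.01, SE 0.23, edgeR adjusted p = 0.978). Ndufa6, a protein of the LYR family that binds the acyl carrier Ndufab1, read 75.9, 66.1 and 68.0 CPM in control and 77.5, 95.5 and 61.7 CPM in knockout libraries, which overlapped (log2 fold change 0.16, SE 0.18, edgeR adjusted p = 0.598). A difference between these 3 genes and the other subunits was not tested.

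Ndufab1, the mitochondrial acyl carrier protein, is bound at more than 1 place in the complex and also serves fatty acid synthesis in mitochondria. It was at 25.5, 32.9 and 36.5 CPM in control and 40.1, 54.8 and 43.2 CPM in knockout libraries. The groups did not overlap, and the gene was not called (log2 fold change 0.54, SE 0.18, edgeR adjusted p = 0.101). When replicate number was added as a block, its adjusted p was 0.0488.

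The proximal membrane arm, next to the matrix arm, had the most calls. Of its 9 accessory subunits 6 were called higher, against 4.1% of tested genes. All 9 had groups that did not overlap, against 17.6% with knockout higher, and the median log2 fold change was 0.70. Median effective length (defined below) was 355.7 bases here, 377.6 in the accessory matrix arm, 527.7 in the distal membrane arm and 776.6 in the core. With the length trend removed, as described below, 4 of the 9 were called higher, with a median of 0.47. Ndufa1 (chrX:37187588-37191163, minus strand) was at 63.8, 75.0 and 81.3 CPM in control and 139, 162 and 111 CPM in knockout libraries. Its lowest knockout library stood well above its highest control (log2 fold change 0.90, SE 0.18, edgeR adjusted p = 0.0180). Ndufa13 (chr8:69894180-69902558, minus strand), also known as GRIM-19, which reaches from the matrix arm into the membrane, read 51.0, 54.1 and 57.7 CPM in control and 87.6, 102 and 74.4 CPM in knockout islets. Its groups were again well apart (log2 fold change 0.70, SE 0.15, edgeR adjusted p = 0.0259). Ndufc2 (chr7:97400003-97407802, plus strand), a membrane subunit, was at 55.8, 55.9 and 65.3 CPM in control and 96.7, 155 and 90.8 CPM in knockout libraries, with knockout replicate 2 far above the other knockouts (log2 fold change 0.95, SE 0.22, edgeR adjusted p = 0.0316).

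Ndufa11 (chr17:56717767-56722141, plus strand), a membrane subunit related to the inner-membrane protein import translocases, was at 27.8, 38.1 and 37.2 CPM in control and 54.8, 97.9 and 57.5 CPM in knockout libraries. Knockout replicate 2 was again far above the others (log2 fold change 1.03, SE 0.25, edgeR adjusted p = 0.0381). Ndufa10 (chr1:92439010-92473860, minus strand), a subunit with a nucleoside kinase fold, differed in this respect: it read 36.4, 44.9 and 42.6 CPM in control and 56.1, 59.0 and 62.2 CPM in knockout islets, with knockout replicate 3 the highest. Its 3 knockout libraries were close together (log2 fold change 0.52, SE 0.13, edgeR adjusted p = 0.0441), and it was not called without the filter on low counts (adjusted p = 0.0907). Ndufc1 (chr3:51404677-51408988, minus strand), the partner of Ndufc2, was at 21.8, 26.4 and 24.8 CPM in control and 36.9, 46.6 and 31.9 CPM in knockout libraries (log2 fold change 0.66, SE 0.17, edgeR adjusted p = 0.0491). Ndufc1 was not called by limma-voom (adjusted p = 0.0610), with protein-coding transcripts only (adjusted p = 0.0561) or when any single library was left out. Ndufa3, Ndufs5 and Ndufa8 were not called (adjusted p = 0.0521, 0.0622 and 0.0864), but with the replicate block Ndufa3 (adjusted p = 0.0218) and Ndufs5 (adjusted p = 0.0342) were. Ndufa8, one of the cysteine-rich subunits on the intermembrane side, had the smallest log2 fold change of the 9, at 35.5, 35.5 and 39.7 CPM in control and 45.8, 58.3 and 46.7 CPM in knockout libraries (log2 fold change 0.45, SE 0.14, edgeR adjusted p = 0.0864).

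The distal membrane arm, the end of the proton-pumping part, is covered by Ndufb subunits. Only Ndufb6 of 10 was called, against 4.1% of tested genes called higher. Of the 10, 8 had groups that did not overlap, against 17.6% with knockout higher, and the median log2 fold change was 0.48. Ndufb6 (chr4:40270591-40279421, minus strand), a single-pass membrane subunit, was at 25.9, 33.3 and 33.0 CPM in control (30.7 ± 4.21, SD, n = 3) and 58.2, 83.1 and 52.0 CPM in knockout libraries (64.4 ± 16.4, SD, n = 3). Each knockout library was well above each control, and Ndufb6 had both the highest log2 fold change and the lowest adjusted p of the 46 genes (log2 fold change 1.07, SE 0.20, edgeR adjusted p = 0.0166). Ndufb11, an X-linked subunit, had the smallest change of the arm, at 107, 113 and 113 CPM in control and 135, 143 and 106 CPM in knockout libraries. Knockout replicate 3 was below the controls for Ndufb11 (log2 fold change 0.20, SE 0.15, edgeR adjusted p = 0.425). Ndufb4 shares sequence with the processed pseudogene Ndufb4c, so the level of Ndufb4 is uncertain. The pseudogene took 539 to 691 estimated reads in control and 799 to 825 in knockout libraries, not scaled to library totals. The remaining 7 genes had log2 fold changes of 0.41 (Ndufb3) to 0.63 (Ndufb7), and with the replicate block Ndufb7 was called (adjusted p = 0.0311).

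Ndufa4 and its paralog Ndufa4l2 carry complex I symbols, though Ndufa4 is now assigned to cytochrome c oxidase. Ndufa4 was at 59.8, 98.7 and 101.4 CPM in control and 127, 194 and 111 CPM in knockout libraries. Control replicate 1 was the lowest by a wide margin, and the spread left the gene uncalled (log2 fold change 0.73, SE 0.27, edgeR adjusted p = 0.127). Ndufa4l2 read 5.17, 4.74 and 6.20 CPM in control and 6.10, 9.52 and 8.69 CPM in knockout libraries, which overlapped (log2 fold change 0.59, SE 0.25, edgeR adjusted p = 0.167). Without this pair, the subunit family holds 36 genes with the same 11 calls.

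The assembly factors had log2 fold changes of 0.24 to 0.66 with a median of 0.57, and none of the 8 was called by edgeR or limma-voom, although the unadjusted p of 5 was below 0.05, against 27.5% of tested genes, and 3 were called higher by DESeq2, against 6.39% of its genes. When replicate number was added as a block, which called 6.93% of tested genes higher, edgeR called 2 of them, Ndufaf7 (adjusted p = 0.0352) and Ndufaf4 (adjusted p = 0.0303). Ndufaf7, an arginine methyltransferase that acts early in assembly, was at 15.5, 19.5 and 18.4 CPM in control and 25.4, 28.1 and 25.3 CPM in knockout libraries. Its groups were clearly separate, and its adjusted p lay just above the threshold (log2 fold change 0.56, SE 0.15, edgeR adjusted p = 0.0506). Ndufaf4, which works with Ndufaf3 on the ubiquinone-binding module, read 12.4, 16.5 and 19.5 CPM in control and 21.2, 29.4 and 25.8 CPM in knockout islets (log2 fold change 0.66, SE 0.21, edgeR adjusted p = 0.0873). Ndufaf2, a paralog of the subunit Ndufa12 that holds its place during assembly, was at 6.22, 6.55 and 6.61 CPM in control and 11.4, 9.52 and 9.59 CPM in knockout libraries, with knockout replicate 1 the highest (log2 fold change 0.66, SE 0.19, edgeR adjusted p = 0.0658).

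Ndufaf5, which modifies an arginine of Ndufs7, was at 6.09, 7.15 and 7.15 CPM in control and 7.83, 12.9 and 10.2 CPM in knockout libraries (log2 fold change 0.60, SE 0.24, edgeR adjusted p = 0.147). Its partner Ndufaf8 read 9.22, 10.1 and 9.53 CPM against 14.1, 18.1 and 10.8 CPM (log2 fold change 0.57, SE 0.22, edgeR adjusted p = 0.141). In both genes the lowest knockout library lay less than 1 CPM above the highest control. Ndufaf6 was at 4.30, 4.31 and 4.52 CPM in control and 5.70, 7.31 and 5.64 CPM in knockout libraries. Ndufaf1, a member of the mitochondrial assembly complex for the membrane arm, was at 4.13, 8.48 and 9.53 CPM in control and 8.03, 12.5 and 11.1 CPM in knockout libraries, and its groups overlapped (log2 fold change 0.51, SE 0.33, edgeR adjusted p = 0.362). Ndufaf3 had the smallest change of the 8, with 16.2, 20.6 and 17.6 CPM in control and 20.0, 27.3 and 17.04 CPM in knockout libraries (log2 fold change 0.24, SE 0.21, edgeR adjusted p = 0.493).

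Transcript length moved with these results. Mean effective length, the length over which a fragment can start, had a median of 499.9 bases in the subunit family and 866 bases in the assembly factors, against 2223 bases over all tested genes. Among 10534 genes above 8 CPM, the rank correlation between a gene's deviation from its mean over the 6 libraries and its length was 0.291, 0.234 and 0.167 in control and 0.0204, -0.513 and 0.0321 in knockout libraries. These are correlations across genes of libraries that share a mean, and knockout replicate 2 lies farthest from the rest. Tested genes of 250 to 500 bases had a median log2 fold change of 0.18, with 6.62% called higher and 63.5% above 0. Those of 500 to 1000 bases had a median of 0.21, with 6.19% called higher and 65.9% above 0. In the same ranges the 16 and 13 subunit genes had medians of 0.59 and 0.45, with 5 and 1 called higher. Among genes of 1000 to 2000 bases, where the median of all was 0.07, the 5 subunit genes had a median of 0.52, with 3 called higher, against 4.36% of all genes of that length. The 3 subunit genes under 250 bases had a median of 0.81, with 2 called higher, against a median of 0.12 and 4.55% called higher over all genes of that length. Ndufs1, at 2226 bases, was the longest.

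**Figure D3:**
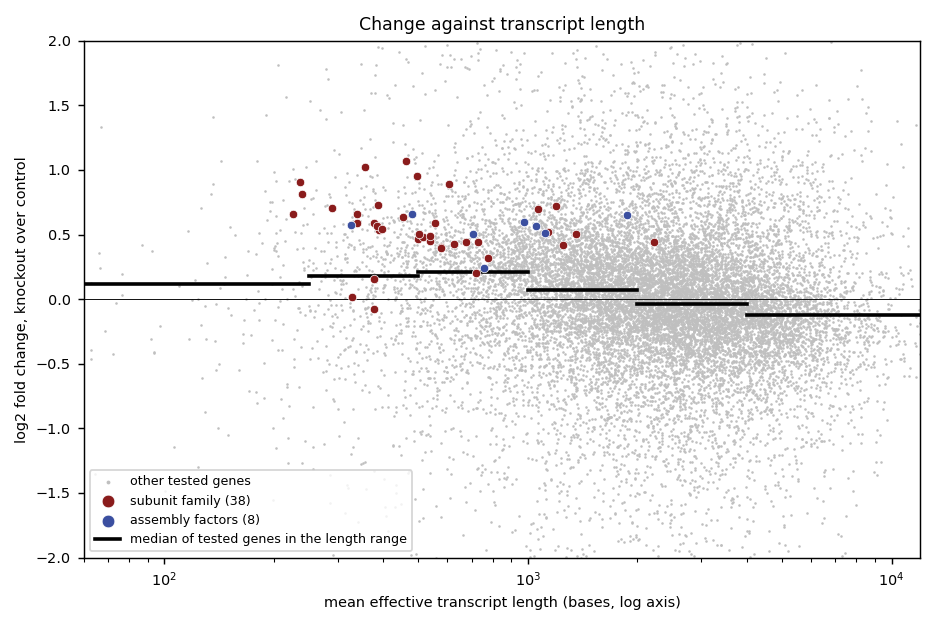
Log2 fold change (knockout over control) of every tested gene against its mean effective transcript length on a log axis, with the 38 subunit genes in red, the 8 assembly factors in blue and black bars at the median of tested genes in each length range. Most complex I genes lie above the bar of their range; genes beyond either axis limit are outside the plot.

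When a smooth trend of log2 CPM against length was removed from each library, the median of the subunit family was 0.26 and 7 of 38 genes were called higher, against 4.69% of tested genes. The 7 were Ndufb6, Ndufa1, Ndufa13, Ndufc2, Ndufa11, Ndufv1 and Ndufs8, while Ndufa5, Ndufs6, Ndufa10 and Ndufc1 were no longer called. In that fit 1 subunit gene, Ndufv3, was called lower (log2 fold change -0.40, edgeR adjusted p = 0.0476), against 6.74% of tested genes, and it was called with the block as well (adjusted p = 0.0473), against 8.9%. Ndufs1 was hardly touched by the trend (log2 fold change 0.45, edgeR adjusted p = 0.0581), nor was Ndufaf4 (0.63, adjusted p = 0.0723). Ndufb11 and Ndufaf3 changed sign, to -0.06 and -0.02. The medians by library became more even: with the trend removed, the subunit family deviated by -0.22, -0.07 and -0.08 (log2) from its mean in control and by 0.13, 0.13 and 0.14 in knockout libraries, where the values before were -0.40, -0.21 and -0.15 and 0.20, 0.53 and 0.10.

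**Figure D4:**
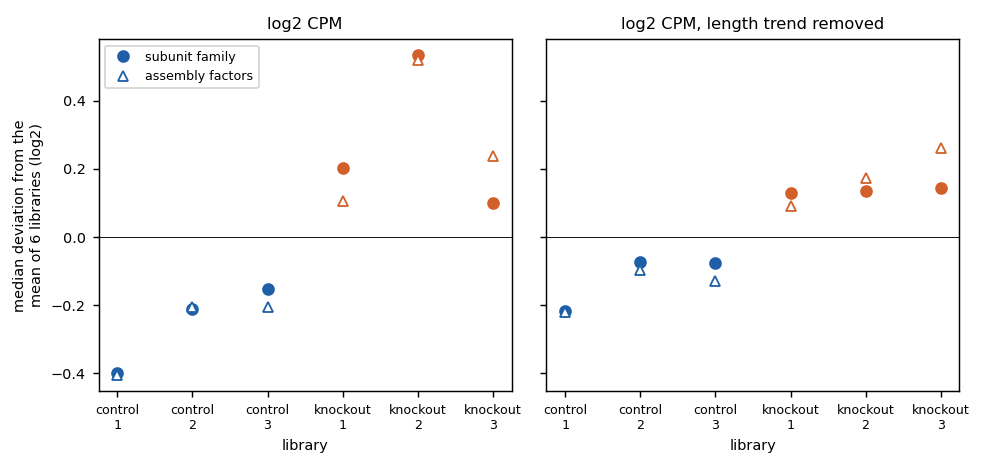
Median deviation of the subunit family (filled circles) and the assembly factors (open triangles) from their mean over the 6 libraries, in log2 CPM, before (left) and after (right) removal of each library's length trend. Knockout replicate 2 stands out before removal (0.53 for the subunit family) and lies beside the other knockout libraries after it (0.13), with all controls below 0 in both panels.

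Leaving out knockout replicate 2 gave a median of 0.41 for the subunit family and 7 genes called higher, against 3.26% of tested genes. These were Ndufb6, Ndufa1, Ndufa5, Ndufa13, Ndufc2, Ndufv1 and Ndufs8. The fold changes of Ndufb6, Ndufa11 and Ndufc2 were then 0.84, 0.71 and 0.67, while those of Ndufa5 and Ndufa10 stayed at 0.71 and 0.52. The assembly factors had a median of 0.39 without that library. In all, 6 of the 11 called genes were called in the fit of all libraries and in the fits with the length trend removed, with the replicate number as a block, with both (7.5% of tested genes called higher), and without knockout replicate 2: Ndufb6, Ndufa1, Ndufa13, Ndufc2, Ndufv1 and Ndufs8. With the trend removed and that library left out, a combination chosen after seeing the data, 6 subunit genes were called higher, against 3.18% of tested genes; Ndufa5 was among them and Ndufa13 was not (adjusted p = 0.0555). The count of calls also moved with each other library: it was 0, 1 (Ndufb6) and 0 without control replicates 1, 2 and 3, against 2.17%, 1.69% and 1.44% of tested genes. It was 5 without knockout replicate 1 and 5 without knockout replicate 3, against 2.32% and 1.62%. With the acinar marker level as a covariate, the median of the subunit family was 0.70, higher than without it, and 5 subunit genes were called higher, against 1.37% of tested genes.

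**Figure D5:**
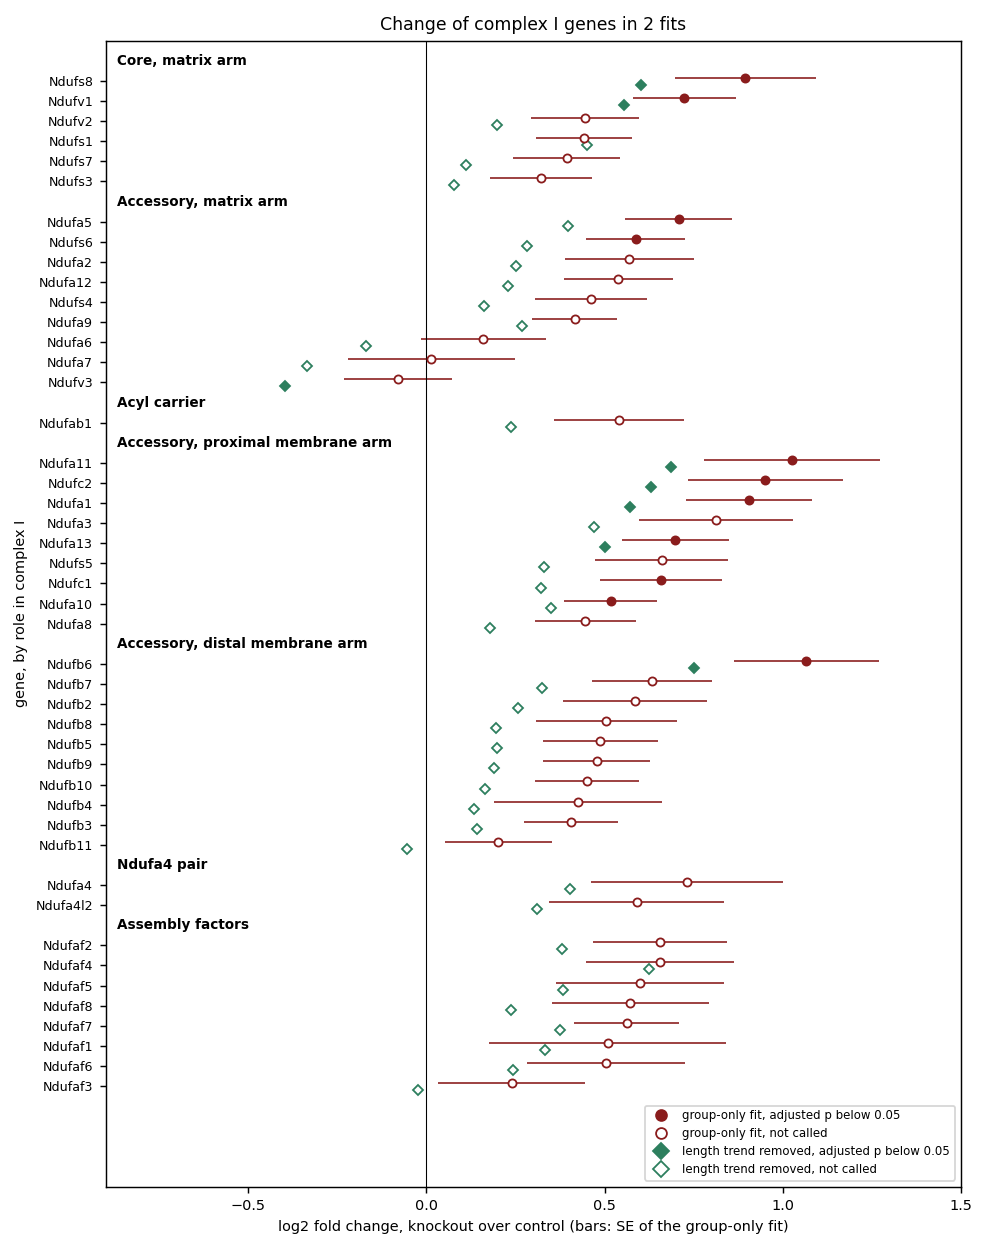
Log2 fold change of the complex I genes named here with its SE in the fit with group only (red circles) and with each library's length trend removed (green diamonds); filled symbols have an edgeR adjusted p below 0.05. With the trend removed most values lie nearer 0, 7 subunit genes remain called higher and Ndufv3 is called lower.

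Sequence upstream of the genes was examined because many of them moved together. RefSeq promoter windows (GRCm38.p6, 250 bases before the annotated start) matched 40 of the 46 genes, with 42 windows. Of the 42 windows, 10 held no annotated exon, and 17 held an exon of a gene on the other strand. Searched on both strands, the NRF1 motif (GCGC, any 2 bases, GCGC) was in 10 of the 42 windows (23.8%), against 4.98% of all 32851 windows. CCGGAAG (ETS family) was in 11.9% against 6.91%, GGGCGG (SP family) in 45.2% against 32.7%, CCAAT (NFY) in 33.3% against 33.8%, AAGGTCA (ERR) in 7.14% against 4.08%, and AAGATGGC (YY1) in 0% against 1.56%. Base composition differed too: median GC was 58.2% in the complex I windows and 52.4% in all, with medians of 17 and 6 CpG dinucleotides, and the motif shares were not adjusted for it. The motif search does not show binding. Of the called genes, Ndufa11, Ndufs6 and Ndufa5 (in both of its windows) held the NRF1 motif. The windows of Ndufb6, Ndufa1, Ndufa13, Ndufc2, Ndufv1, Ndufs8, Ndufa10 and Ndufc1 did not. A link between the motif and the change was not tested. Windows of called subunits without an annotated exon are printed 5′ to 3′ on the gene's strand for Ndufb6 (chr4:40279422-40279671, minus strand), Ndufs8 (chr19:3912775-3913024, minus strand) and Ndufc2 (chr7:97399753-97400002, plus strand). That of the uncalled core gene Ndufv2 (chr17:66101560-66101809, minus strand) is added because it holds the NRF1 motif; capitals mark motif matches.
Ndufb6: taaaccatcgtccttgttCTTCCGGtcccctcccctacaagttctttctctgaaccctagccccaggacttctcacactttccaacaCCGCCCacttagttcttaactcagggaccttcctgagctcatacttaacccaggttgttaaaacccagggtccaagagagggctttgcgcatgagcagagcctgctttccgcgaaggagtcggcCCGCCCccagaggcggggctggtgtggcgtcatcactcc
Ndufs8: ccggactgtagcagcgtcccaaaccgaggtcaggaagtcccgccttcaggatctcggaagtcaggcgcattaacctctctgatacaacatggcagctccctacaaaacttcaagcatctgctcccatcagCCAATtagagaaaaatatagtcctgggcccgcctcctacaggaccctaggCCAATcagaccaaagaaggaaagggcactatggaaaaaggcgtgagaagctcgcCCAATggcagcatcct
Ndufc2: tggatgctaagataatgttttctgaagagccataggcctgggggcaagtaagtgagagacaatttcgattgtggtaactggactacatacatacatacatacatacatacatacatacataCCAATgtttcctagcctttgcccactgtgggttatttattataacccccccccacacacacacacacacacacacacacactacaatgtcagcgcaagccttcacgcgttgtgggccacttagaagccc
Ndufv2: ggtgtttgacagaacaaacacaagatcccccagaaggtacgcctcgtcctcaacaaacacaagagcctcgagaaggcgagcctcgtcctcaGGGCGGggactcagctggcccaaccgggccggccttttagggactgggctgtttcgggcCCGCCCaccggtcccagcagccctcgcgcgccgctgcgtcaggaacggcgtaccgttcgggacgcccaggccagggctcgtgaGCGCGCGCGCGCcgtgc
In the Ndufb6 window the capitals are an ETS match 232 to 226 bases before the start and SP matches at 163 to 158 and 39 to 34 bases, all on the opposite strand. The Ndufs8 window has 3 CCAAT matches and the Ndufc2 window 1, just after a run of repeats. The Ndufv2 window holds overlapping NRF1 matches at 17 to 6 bases before the start, beside SP matches on each strand. Of the motifs searched, CCAAT is the one that the Ndufs8 and Ndufc2 windows share.

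Complex I also needs 7 subunits encoded by mitochondrial DNA, and their mRNAs were measured in the same libraries. None of the 7 was called by edgeR, DESeq2 or limma-voom. Over all tested genes edgeR called 4.1% higher and 5.84% lower, and 0 of 7 is near these shares. None of the 7 had an unadjusted p below 0.05, against 27.5% of tested genes, and their median log2 fold change was 0.06. Their summed level was 13433, 11642 and 11122 CPM in control and 17521, 8316 and 10870 CPM in knockout libraries, so the groups overlapped. Knockout replicate 2, the highest for most nuclear genes, had the lowest sum. By gene, it was the lowest library for mt-Nd1, mt-Nd2, mt-Nd4 and mt-Nd4l. For mt-Nd3 (83.6 CPM) and mt-Nd6 (62.7 CPM) it was the highest. A difference between nuclear and mitochondrial subunits was not tested. The highest of them was mt-Nd6 (0.68, SE 0.31, edgeR adjusted p = 0.205) and the lowest mt-Nd4l (-0.20, adjusted p = 0.728).

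Of 13 tested assembly factors under other names, edgeR called Acad9 higher and none lower, against 4.1% and 5.84% of tested genes. An unadjusted p below 0.05 was found for 4 of the 13, near the 27.5% of tested genes, and DESeq2 called 3 and limma-voom 0. Acad9, which joins Ndufaf1 in membrane-arm assembly, was at 23.2, 25.5 and 26.2 CPM in control and 35.3, 34.0 and 35.1 CPM in knockout libraries. Its groups did not overlap (log2 fold change 0.48, SE 0.12, edgeR adjusted p = 0.0460). With protein-coding transcripts only, Acad9 was not called (edgeR adjusted p = 0.139). Its partner Ecsit had the highest log2 fold change of the list (0.55, adjusted p = 0.0614, and 0.0452 with the replicate block), and Tmem186 the lowest (-0.28, adjusted p = 0.467). Of 18 tested genes that feed electrons or NADH into the chain by other routes, the complex II subunits Sdhb (0.74, adjusted p = 0.0396) and Sdhc (0.90, adjusted p = 0.0374) were called higher, against 4.1% of tested genes. Slc25a13, an aspartate-glutamate carrier of the shuttle that brings cytosolic NADH equivalents into mitochondria, was called lower, at 6.38, 9.26 and 5.91 CPM in control and 3.01, 2.27 and 2.82 CPM in knockout libraries (log2 fold change -1.40, SE 0.27, edgeR adjusted p = 0.0177). It was not called when an offset for transcript length was used, or without control replicate 2 or knockout replicate 3. With the replicate block, Dhodh was also called higher (adjusted p = 0.0424) and Gpd2 lower (adjusted p = 0.0259), against 6.93% and 7.86% of tested genes. Gpd2 was not called in the group-only fit (log2 fold change -0.90, edgeR adjusted p = 0.0553) or with the acinar covariate (edgeR adjusted p = 0.0534). It was called lower by DESeq2 (adjusted p = 0.00502), by limma-voom (adjusted p = 0.0497) and with the length trend removed (edgeR adjusted p = 0.0385). Of the fits without a single library, 1 called it, that without knockout replicate 2.

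Among 12 tested regulators of mitochondrial biogenesis, Ppargc1a was the only gene called, against 4.1% of tested genes called higher. This coactivator of nuclear genes for mitochondrial proteins was at 3.25, 2.11 and 1.31 CPM in control and 15.1, 5.17 and 6.69 CPM in knockout libraries. Its groups did not overlap, and knockout replicate 1 was the highest (log2 fold change 2.02, SE 0.49, edgeR adjusted p = 0.0386). Nrf1 (-0.29, adjusted p = 0.238) and Gabpa (0.23, adjusted p = 0.244), whose products bind promoters of respiratory chain genes, were not called, and Myc had the lowest value (-0.87, adjusted p = 0.301). Of the 4 higher calls in these lists, Acad9, Sdhb, Sdhc and Ppargc1a, at most 1 stood when any single library was left out.

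The authors' deposited table of their own comparison held 18 of the 38 subunit genes as higher and 0 as lower at an adjusted p below 0.05, where 6.655% of the 17145 genes with an adjusted p were higher. In the authors' deposited table the median of the subunit family was 0.46, Ndufb6 had 0.95 with an adjusted p of 9.98e-05, and the assembly factors Ndufaf7 and Ndufaf2 were higher at 0.47 and 0.52. Its calls are more numerous than those of edgeR, as were those of DESeq2 run on the summed counts, which called 18 subunit genes higher against 6.39% of genes.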

How the data were processed

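Poly(A)-enriched RNA was measured in 6 islet libraries, each from 1 mouse. Builds GRCm38 and mm10 and the tools Salmon, Trimmomatic and DESeq2 are named, per the submitters' processing notes; for versions and for Salmon's strand option a value was not given in the sources used here. Transcript tables deposited by the authors hold estimated counts, TPM and effective lengths, per the file headers, and their comparison table holds p-values and log2 fold changes, also as deposited. A deposited table of 6 per-sample columns of scaled signal values was not used.

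Transcripts were joined to GENCODE vM21 genes (139852 of 140948 matched, with 99.6 to 99.7% of reads). Each gene's estimated counts were added up, then rounded. The edgeR 4.0.16 filter (minimum count 10) left 16430 genes, which were scaled by TMM and tested by quasi-likelihood in R 4.3.3 with group as the only term. P-values are two-sided and adjusted by Benjamini-Hochberg over all tested genes, with a threshold of 0.05. The common biological coefficient of variation was 0.26. CPM taken to log2 had a prior count of 2. The length trend was a lowess curve (span 0.3) per library, fitted on genes above 8 CPM. Alternatives were DESeq2 1.42.0, limma 3.58.1 (voom), other size factors, no filter, length offsets, protein-coding transcripts only, the acinar level as covariate, Gm42418 left out, a replicate block and each library left out. The analysis code was tested on simulated counts.

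Same-numbered libraries of the groups were checked for pairing: their deviations from the group means correlated by 0.427, 0.135 and 0.196 over genes, all above 0.1, against -0.318 to 0.14 for other pairs. The labels do not say what the numbers share.

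The members, role groups and pathway lists were chosen with earlier results of these data known. Values by library are given for called members, core subunits, the extremes of each role group, Ndufab1, the Ndufa4 pair and all assembly factors; for the pathway lists, called genes and extremes are given. One core subunit gene enters the counts and medians and is not reported here by name. Promoter windows of Ndufa1, Ndufv1 and Ndufa4 overlap annotated exons and are not printed, and Ndufv2 was added after its values were seen. Several members overlap antisense genes, among them Ndufa11 with Vmac, Ndufa13 with Tssk6, Ndufb6 with Smim27 and Ndufs6 with Mrpl36, so some of their reads may belong to the partner. On the same strand, Ndufb2 overlaps Gm42420, Ndufb8 overlaps Gm20538 and Ndufb9 overlaps Gm49356. Strand cannot separate the reads of these pairs. No protein sequences were used here.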

Additional observations from a re-analysis of the deposited data

How the results depend on the processing

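The median log2 fold change of the subunit family stayed positive under every alternative run, and it was 0.264 with the length trend removed, 0.267 with the trend removed and the replicate block, and 0.278 with the trend removed and without knockout replicate 2, a combination chosen after seeing the data; leaving out single libraries gave 0.409 to 0.609. The 11 subunit genes called higher became 18 with DESeq2, 7 with the length trend removed, 5 with the acinar covariate, 6 with the trend removed and without knockout replicate 2, and 0 to 7 without single libraries. The replicate block gave 16; Ndufa12, Ndufb7, Ndufa3, Ndufs5 and Ndufab1 were gained. Subunit genes called lower went from 0 to 1 with the trend removed, alone or with the block. Called assembly factors went from 0 to 3 with DESeq2, 2 with the replicate block, and 1 each with the size factors of DESeq2, with the trend removed and the block, and without Gm42418.

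Over all genes, 674 higher calls became 1138 with DESeq2, 1138 with the replicate block, 1232 with the trend removed and the block, 225 with the acinar covariate and 243 to 550 without single libraries. The 960 lower calls became 1463 with the trend removed and the block, 417 with the acinar covariate and 464 to 780 without single libraries. The 4 pathway genes called higher became 7 with DESeq2, 7 with the trend removed and the block, 2 with the acinar covariate, 2 with the trend removed and without knockout replicate 2, and 0 to 1 without single libraries. The 1 called lower became 0 with the length offset, 0 to 2 without single libraries, and 2 with DESeq2, limma-voom, no filter, protein-coding transcripts only, the replicate block, the trend removed, and the trend removed with the block.

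With the trend removed, with the trend removed and the block, and with the trend removed without knockout replicate 2, the log2 fold change of Ndufb11 was -0.0555, -0.0607 and -0.0253 and that of Ndufaf3 -0.0236, -0.0241 and -0.103. Ndufv3 was at 0.0465 with the acinar covariate and at -0.234 (without knockout replicate 2) to 0.00525 (without knockout replicate 3) when single libraries were left out. The cause of these changes was not tested. Fits without a library have 2 libraries in a group and test with less information, and the low counts of Ndufaf1, Ndufaf6 and Ndufa4l2 limit their precision. Effective lengths and the sharing of reads among transcripts are estimates of Salmon.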

Other observations

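The complex I genes left out for their annotation held reads in 2 cases. Ndufb1-ps, annotated as a long noncoding RNA and named after a distal membrane subunit, held 703, 813 and 930.0 estimated reads in control and 1198, 1012 and 992 in knockout libraries. The processed pseudogene Ndufb4c held 539, 643 and 691 in control and 825, 799 and 807 in knockout libraries. The pseudogenes Ndufab1-ps, Ndufs6b and Ndufa11b held at most 3.3 reads in any library. These reads are not scaled to library totals, which ran from 17131515 in knockout replicate 2 to 25354384 in control replicate 2. Levels of these genes therefore cannot be compared between libraries on them.

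Nnt, the transhydrogenase that makes NADPH from NADH in mitochondria, was at 47.4 CPM in knockout replicate 1 and at 8.76 to 20.4 CPM in the other 5 libraries, a value that sets this library apart from all others.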
